A study of Mus musculus with 12 samples.

Results

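mmu-miR-140 and mmu-miR-140*, below without the species prefix, are the 2 arms of the hairpin of the mouse gene Mir140, and their rows were taken by exact ID from a deposited table of 710 mouse miRNAs measured in blood. They were chosen by their mean intensities over these arrays: the ID with a star, which marks a strand once listed as the passenger, was far brighter than the ID without it, so that difference is described here and not tested. The blood came from 6 Tff3 knockout mice (labelled tff3 KO, 3 males and 3 females) and 6 wild-type mice (3 males and 3 females). Tff3 encodes trefoil factor 3, a peptide that mucus-secreting cells of the gut release. The labels call the mice knockouts while the text on the design speaks of knock-down. The sources used here do not give the allele, strain or age. Total RNA from the pelleted cells of peripheral blood was hybridised to a miRNA array and labelled with biotin by primer extension. The array measures miRNAs only, so Tff3 itself could not serve as a check of the genotypes, and the TaqMan measurements that the design text mentions were not analysed here.

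A miRNA hairpin is cut into a short duplex, and usually 1 of its strands is kept by an Argonaute protein while the other is discarded. The seed, bases 2 to 8 of the kept strand, leads the protein to its targets, so the arms of a hairpin address different mRNAs. Mir140 lies within Wwp2, which encodes a ubiquitin ligase, and is best known from cartilage, where the transcription factor Sox9 drives it and its loss in mice impairs growth of the skeleton. Later releases of the miRNA database dropped the star and call miR-140 miR-140-5p and miR-140* miR-140-3p.

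The hairpin is shown because it holds both arms, with the bright arm in capitals. It lies on the plus strand at chr8:107551244-107551313 of the RefSeq assembly GRCm38.p6, inside the span of Wwp2, whose start is on the same strand. The RefSeq table lists miR-140-3p for this hairpin, at bases 45 to 65 of 70.
Mir140 hairpin, 5′ to 3′: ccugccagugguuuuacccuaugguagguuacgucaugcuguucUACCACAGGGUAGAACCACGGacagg
In the structure of lowest free energy that RNAfold predicted (-39.1 kcal/mol), 20 of the 21 bases of miR-140-3p were paired, with partners between bases 5 and 26, the side of the hairpin from which miR-140 is cut. The mature strands below, with the seed in capitals, show the bright arm and the only other mouse sequence of that seed among 1738 in the RefSeq table. miR-497b has no row on the array, so no measured miRNA is known from this table to share the seed of miR-140*.
miR-140-3p: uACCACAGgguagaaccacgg
miR-497b: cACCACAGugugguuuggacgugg
No mature sequence of miR-140-5p is printed.

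miR-140* was among the brightest miRNAs of blood on every array. The deposited intensity of mmu-miR-140* was 16612, 33052, 24834, 19881, 33588 and 30475 in knockouts 1 to 6, and 43850, 55673, 27378, 16084, 19229 and 16288 on wild-type arrays 7 to 12. The 2 brightest and the 2 dimmest values belonged to wild types, knockout 1 lay just above the dimmest, and the groups overlapped. Mean intensity was 26407 ± 7117 (SD) in the 6 knockouts and 29750 ± 16463 in the 6 wild types. The highest value of the whole table was 64623, on wild-type array 8, where miR-140* also had its highest value, 55673. Whether any array read miR-140* near saturation was not tested. It ranked between 4 and 7 of 710 on all 12 arrays, in knockouts and in wild types alike.

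The spread in intensity ran along with that of the arrays as wholes. Wild-type arrays 7 and 8, which had the highest miR-140* values, also had the highest summed intensities, 814648 and 1111471, while the other wild types lay between 391740 and 576861 and the knockouts between 472963 and 814468. As a share of the summed intensity miR-140* took 3.05, 4.06, 4.04, 4.20, 5.28 and 4.39% in knockouts 1 to 6, and 5.38, 5.01, 4.75, 3.56, 4.91 and 3.61% on wild-type arrays 7 to 12. The share averaged 4.17 ± 0.72% (SD) in the 6 knockouts and 4.54 ± 0.77% in the 6 wild types, a difference of -0.37 percentage points that an exact two-sided permutation test did not separate (p = 0.405). The coefficient of variation of miR-140* was 27.0% in knockouts and 55.3% in wild types for the intensity, and 17.2% in knockouts and 16.9% in wild types for the share.

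miR-140, the arm without a star, was dim. The deposited intensity of mmu-miR-140 was 48, 128, 36, 100, 60 and 80 in knockouts 1 to 6, and 56, 92, 100, 36, 92 and 148 on wild-type arrays 7 to 12. The groups covered nearly the same range, with a mean of 75.3 ± 34.4 (SD) in the 6 knockouts and 87.3 ± 38.7 in the 6 wild types. Ordered by intensity it stood between 328.5 and 591 in knockouts and between 315.5 and 554 in wild types, out of 710, where a fraction marks tied values. It lay below the median miRNA of its array on 5 of 6 knockout and 4 of 6 wild-type arrays. The table gives no detection call. As a rough scale of its noise, the lowest value of an array lay between -64 and -24, and miR-140 exceeded the size of that value on 10 of 12 arrays.

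**Figure D1:**
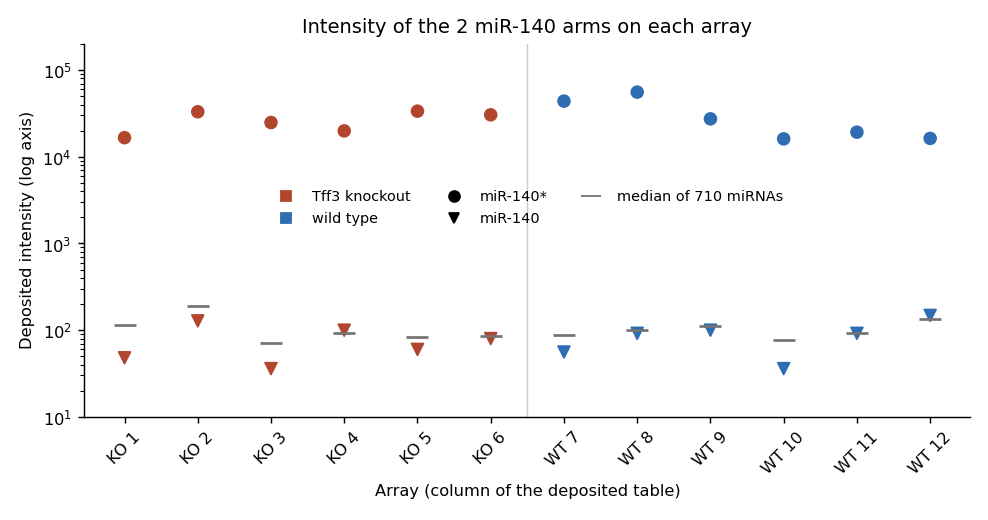
Deposited intensity on a log axis of miR-140* (circles), miR-140 (triangles) and the median miRNA (grey bars) on each of the 12 arrays, knockouts at the left and wild types at the right. The circles lie between 16084 and 55673 on every array, and the triangles between 36 and 148, near or below the median bar.

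To compare arrays, intensities were quantile-normalized, which gives every array the same set of values, and turned into levels, log2(value + 50). On this scale miR-140* took only 4 distinct levels, since it held ranks 4 to 7 throughout. Its level was 14.43, 14.72, 14.72, 14.72, 15.02 and 14.92 in knockouts 1 to 6, and 14.72, 14.92, 15.02, 14.43, 15.02 and 14.92 on wild-type arrays 7 to 12. Both groups used the same 4 levels. The level of miR-140 was 6.49, 6.84, 6.78, 7.34, 6.99 and 7.20 in knockouts 1 to 6, and 6.95, 7.18, 7.12, 6.63, 7.26 and 7.38 on wild-type arrays 7 to 12, again with overlapping groups.

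The study's main comparison is of Tff3 knockouts with wild types, and neither arm of miR-140 passed the test between them. miR-140* was at 14.76 ± 0.20 (SD) in the 6 knockouts and 14.84 ± 0.23 in the 6 wild types. The log2 difference was -0.08 with a standard error of 0.15 and a 95% interval from -0.40 to 0.24, and limma's adjusted p over all 710 miRNAs was 0.889. miR-140 was at 6.94 ± 0.31 (SD) in the 6 knockouts and 7.09 ± 0.26 in the 6 wild types. Its log2 difference was -0.15 with a standard error of 0.17, a 95% interval from -0.52 to 0.22 and limma's adjusted p of 0.836. limma called 0 of the 2 arms and 0 of all 710 miRNAs (0%) at an adjusted p of 0.05, and at an unadjusted p under 0.05 it called 0 of the 2 and 64 of the 710 (9.01%). miR-140* moved only between neighbouring ranks, and its interval was wider on a scale that keeps differences in intensity. With each array scaled to its 75th percentile, the difference of miR-140* was -0.06 with a 95% interval from -0.67 to 0.55, and that of miR-140 was -0.14, from -0.54 to 0.27. In the pelleted cells of blood, fewer cells of a type and less RNA per cell cannot be told apart.

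**Figure D2:**
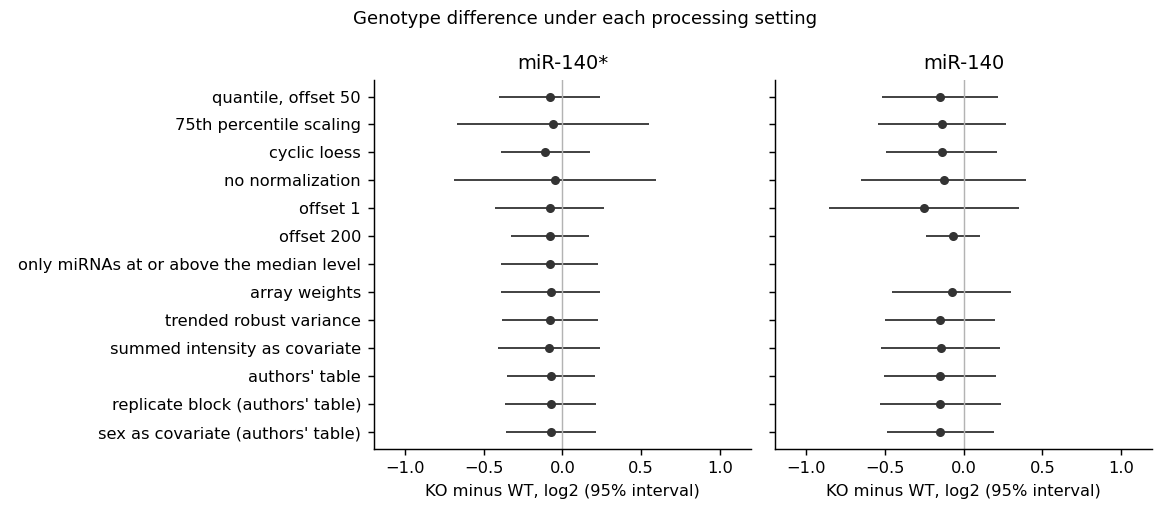
Log2 difference of knockouts over wild types for miR-140* (left) and miR-140 (right), with 95% intervals (lines), under each processing setting (down the page). Every interval includes 0, the points lie between -0.11 and -0.05 for miR-140* and between -0.25 and -0.07 for miR-140, and miR-140 has no point under the setting that keeps the brighter miRNAs.

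The arms stood far apart on every array. Probes differ in how strongly they bind and are labelled, so the size of the gap is that of 2 probe signals and not a ratio of molecules. The level of miR-140* minus that of miR-140 was 7.95, 7.89, 7.94, 7.39, 8.03 and 7.71 in knockouts 1 to 6, and 7.77, 7.74, 7.90, 7.80, 7.76 and 7.53 on wild-type arrays 7 to 12. After quantile normalization knockout 4 had the smallest gap and knockout 5 the largest, so on this scale the wild types lay inside the range of the knockouts. The gap averaged 7.82 ± 0.24 (SD) in the 6 knockouts and 7.75 ± 0.12 in the 6 wild types, and the genotype difference of 0.07 on the log2 scale was not separated by an exact two-sided permutation test (p = 0.545). In knockout 3 and on wild-type array 10 miR-140 did not exceed the size of the lowest value, so the gap there rests on a value within the noise.

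Among hairpins with both arms on the array, miR-140 was the pair with the largest excess of the starred arm. There were 107 pairs of an unstarred and a starred ID, and the starred ID had the higher mean level in 37 of them (34.6%), on all 12 arrays in 14. The mean gap of miR-140 was 7.78 on the log2 scale, whereas the median pair stood at -0.86. The pairs that followed it were miR-467b at 3.70, miR-196a at 3.19, miR-330 at 2.69, miR-7a at 2.61 and miR-467a at 2.21. Their dimmer arm exceeded the size of the lowest value of its array on 5, 0, 3, 8 and 10 of 12 arrays, in that order, against 10 for miR-140, so the gaps of miR-467b, miR-196a and miR-330 are set against values mostly within the noise and their size and order are uncertain. miR-140* was the only starred arm of these pairs among the 50 miRNAs with the highest mean levels, which held 20 unstarred arms. In 74 further pairs, named 5p and 3p, the widest gap was 4.14, for miR-125b. The genotype difference of the gap, 0.07 for miR-140, ran from -0.80 to 1.46 over the 107 pairs with a median of 0.05.

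How steady the gap looked depended on the scale. After quantile normalization its SD over the 12 arrays was 0.18, and none of the 107 pairs had a smaller one, the median being 0.48. On the deposited intensities, as log2(intensity + 50), the SD was 0.68 and 75 of the 107 pairs had a smaller one, with a median of 0.55. There the SD within a genotype was 0.47 in knockouts and 0.90 in wild types. The ratio of the deposited intensities ran from 199 to 690 in knockouts and from 110 to 783 in wild types. By that ratio the knockouts lay inside the range of the wild types. With scaling to the 75th percentile the SD of the gap over the 12 arrays was 0.70, and again 75 pairs had a smaller one. The levels of miR-140* itself had an SD of 0.21 after quantile normalization and of 0.59 on the deposited scale.

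**Figure D3:**
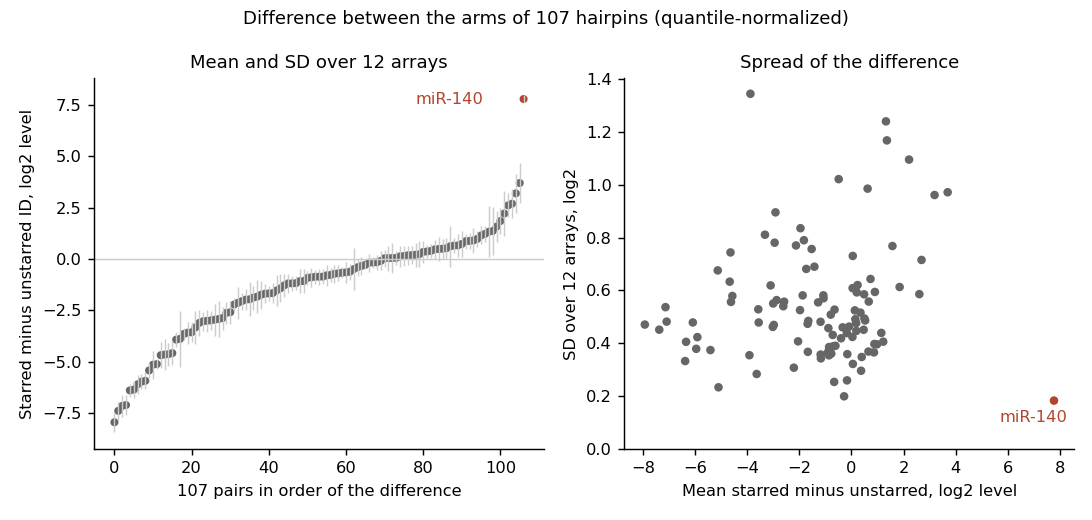
Left, the level of the starred minus the unstarred ID for 107 hairpins in order, as mean and SD over 12 arrays (quantile-normalized log2 levels). Right, the SD of the same difference against its mean; miR-140 (red) has a mean of 7.78 and an SD of 0.18, the lowest of the 107 on this scale.

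In the order of mean levels miR-140* stood at place 6 and miR-140 at place 431 of 710. These places order probe signals, since no probe's affinity is known. Next above miR-140* came miR-15b and miR-16, which are abundant in red cells, and next below it miR-2142 and miR-191. miR-140* was lower than miR-16 on 9 of 12 arrays and lower than miR-15b on 6, with mean differences of -0.21 ± 0.40 and -0.16 ± 0.46 (SD, n = 12). The SD is the spread between arrays and not the uncertainty of the mean, and these differences were not tested. miR-140* was higher than miR-2142 on 10 arrays, by 0.39 ± 0.47, and higher than miR-191 on all 12, by 0.75 ± 0.30. Around miR-140 the levels lay close together, as miR-146b, miR-693-3p, miR-470* and miR-380-5p differed from it by at most 0.0048 on average, with SDs of 0.34 to 0.42.

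The miRNAs whose levels followed each arm most closely were found by Pearson's r over the 12 arrays after each genotype's mean was subtracted. For miR-140 they were miR-136* (r = 0.85, Spearman's rho = 0.85), miR-547 (0.81 and 0.83), miR-147 (0.76 and 0.80), miR-140* (0.75 and 0.59) and miR-1936 (0.75 and 0.69). The 4 besides miR-140* were dim too, with mean levels between 6.38 and 6.84, and with scaling to the 75th percentile their r with miR-140 was 0.77 to 0.85. For miR-140* they were miR-1930 (r = 0.91, rho = 0.82), miR-378* (0.90 and 0.83), miR-140 (0.75 and 0.59), miR-342-5p (0.72 and 0.53) and miR-1933-5p (0.72 and 0.63). These did not hold on the other scale: with scaling to the 75th percentile the r with miR-140* was -0.16 for miR-1930, 0.03 for miR-378*, -0.17 for miR-342-5p and 0.03 for miR-1933-5p. Between the arms themselves r was 0.75 after quantile normalization, 0.06 on the deposited scale and -0.39 with scaling to the 75th percentile. These miRNAs were picked for the highest r of all those measured, over only 12 arrays, and such a choice by itself yields high values. All points share their array and its summed intensity, so these values are descriptions.

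Other miRNAs studied in cartilage or bone had mean levels from 6.29 to 13.27, where all 710 miRNAs ran from 4.64 to 15.54. Of 20 such IDs, 15 had a higher and 5 a lower mean level than miR-140, and none reached that of miR-140*, 14.80. The brightest were miR-22 at 13.27, miR-29a at 12.08 and miR-222 at 10.80, all of which occur in many tissues. miR-455, which like miR-140 is abundant in cartilage, was at 7.59 and miR-675-5p, made from the imprinted H19 transcript, at 7.47. Between knockouts and wild types limma called 0 of the 20 in either direction, with 9 positive and 11 negative differences and a median log2 difference of -0.02, against a median of -0.0015 over all 710.

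The blood origin of the RNA was checked with lists of miRNAs typical of its cells. The 7 red cell miRNAs had mean levels from 10.22 to 15.31, with miR-486 the brightest, while miR-451 and miR-144 were only at 10.79 and 10.25. The neutrophil miRNA miR-223 and the lymphocyte miRNA miR-150 were at 10.91 and 11.62. Not every blood cell miRNA was bright, as the leukocyte miRNAs miR-142-3p and miR-155 were at 6.51 and 6.50. The platelet list of 6 had a median of 10.28. The mean level of the red cell list was 12.43 to 13.00 in knockouts and 12.37 to 12.76 in wild types, and that of the platelet list 9.45 to 9.89 in knockouts and 9.48 to 9.74 in wild types. The neutrophil and leukocyte list lay at 9.49 to 9.68 in knockouts and 8.99 to 10.28 in wild types, and the lymphocyte list at 7.88 to 8.91 in knockouts and 8.62 to 9.32 in wild types. The list for liver, muscle and stroma ran from 7.28 to 9.38 in knockouts and from 7.56 to 8.68 in wild types, and its members were not all dim. The epithelial miRNA miR-200c had a mean level of 10.18, close to the platelet median and to miR-144. miR-122, the main miRNA of hepatocytes, was at 9.04 but varied widely, with an SD of 2.20 in knockouts and 2.46 in wild types. Its deposited intensity ran from 32 to 6922 over the arrays. The muscle miRNA miR-133a was at 8.88, while miR-1 and miR-206 of muscle were at 6.29 and 6.71. limma called 0 members of these lists in either direction. The median log2 difference was -0.04 for red cells, -0.01 for platelets, 0.15 for neutrophils and leukocytes, -0.60 for lymphocytes and 0.18 for liver, muscle and stroma. Single members lay far from these medians. Among red cell miRNAs 3 differences were positive and 4 negative, with 1.02 (standard error 0.39) for miR-144. In the list for liver, muscle and stroma 4 were positive and 3 negative, with -1.90 (standard error 1.06) for miR-122. The 5 lymphocyte miRNAs went both ways. The difference was 0.16 for miR-150 and 0.17 for miR-155, with standard errors of 0.25 and 0.20. It was -0.60 for miR-342-3p, -1.08 for miR-181a and -0.89 for miR-181b, with standard errors of 0.28, 0.27 and 0.24. limma's adjusted p was 0.135 for miR-181a, with no smaller one among the 710 miRNAs, and 0.141 for miR-181b. Which cells hold the miR-140* of these samples was not tested.

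Sex was compared first within the knockouts, whose columns carry the labels' numbers. miR-140 had levels of 7.34, 6.99 and 7.20 in females and of 6.49, 6.84 and 6.78 in males, groups that did not overlap. The mean was 7.17 ± 0.18 (SD) in the 3 females and 6.70 ± 0.19 in the 3 males. The log2 difference was 0.47 with a standard error of 0.20, limma's adjusted p was 0.647 and the unadjusted p 0.040. An unadjusted p under 0.05 was reached by 53 of the 710 miRNAs (7.46%). Groups that did not overlap occurred for 78 of the 710 (11%). On the deposited intensities the same mice overlapped, with 100, 60 and 80 in females and 48, 128 and 36 in males, and without normalization the log2 difference was 0.17. miR-140* was at 14.89 ± 0.15 (SD) in the 3 females and 14.63 ± 0.17 in the 3 males, higher in females by 0.26 on the log2 scale with a standard error of 0.19 and limma's adjusted p of 0.761. limma called 0 of the 710 (0%) between the sexes. Males are knockouts 1 to 3 and females knockouts 4 to 6, so sex and column order cannot be told apart.

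Column names tie wild types to a sex only in a second table, in which the authors had normalized the same arrays and named each column by its sample. There, as log2(value + 50), miR-140 was at 6.61, 7.24 and 7.36 in wild-type females and at 6.93, 7.16 and 7.09 in wild-type males. The groups overlapped and their means were 7.07 ± 0.41 (SD) in the 3 females and 7.06 ± 0.12 in the 3 males. miR-140* was at 14.30, 14.83 and 14.69 in wild-type females and at 14.53, 14.69 and 14.83 in wild-type males, which overlapped too. Over both genotypes the difference of females over males was 0.24 with a standard error of 0.16 for miR-140 (limma's adjusted p 0.519) and 0.07 with a standard error of 0.13 for miR-140* (0.853), while 1 of 710 miRNAs (0.141%) was called, miR-122, named here after its value was seen.

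Whether the genotype difference itself differed between the sexes was tested as an interaction in that table. For miR-140 the difference of knockouts over wild types was more positive in females than in males by 0.47 on the log2 scale, with a standard error of 0.30, a 95% interval from -0.18 to 1.12 and limma's adjusted p of 0.735. For miR-140* it was 0.30 with a standard error of 0.26, a 95% interval from -0.26 to 0.87 and limma's adjusted p of 0.745. limma called 0 of the 710 (0%) for this term, and 42 (5.92%) had an unadjusted p under 0.05, with neither arm among them. Each sex of a genotype had 3 mice. In both genotypes the labels number males 1 to 3 and females 4 to 6. Sex and sample number therefore cannot be told apart over both genotypes or in the interaction either.

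**Figure D4:**
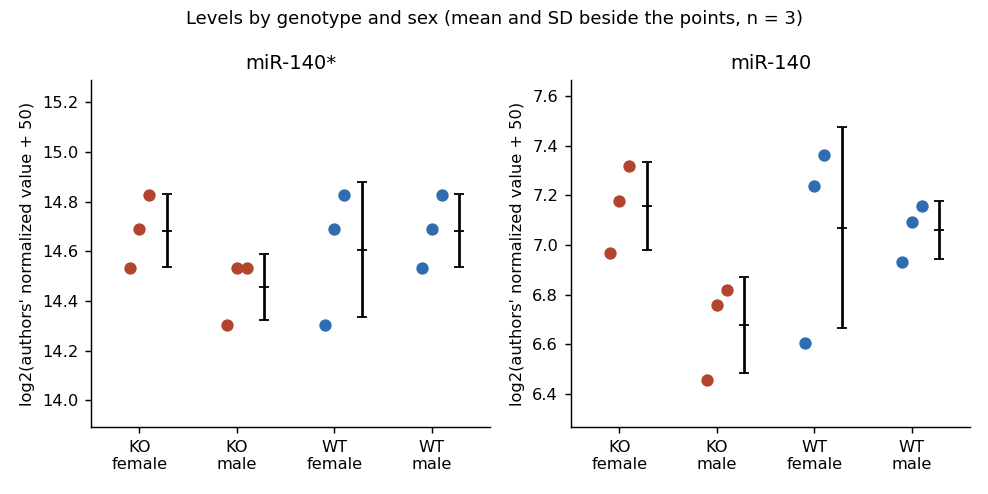
Level of miR-140* (left) and miR-140 (right) in the authors' normalized table, log2(value + 50), for knockout females, knockout males, wild-type females and wild-type males; points are mice, and bars beside them the mean and SD (n = 3). For miR-140 the 3 knockout females, with a mean of 7.16, lie above the 3 knockout males, with a mean of 6.68, while the wild-type sexes overlap.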

How the data were processed

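The authors deposited a table of linear array intensities (710 miRNAs, 12 columns, from -64 to 64623, with 3.31% of values below 0), whose sums differ between columns. It looks background-subtracted and not normalized, although no header or label says so. The authors' second table holds intensities of the same arrays that look quantile-normalized with a floor of 1: each of its columns ranks as 1 column of the first does (rank correlation of at least 0.99997). The sources used here do not give the scanner, the background method or the miRBase release. The extraction and labelling follow the labels' protocols, which state that blood came from separate mice.

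Knockout columns of the first table carry the labels' numbers, and its wild-type columns, 7 to 12, were used as a group without sex. Intensities were quantile-normalized, transformed to log2(value + 50), which understates differences of dim miRNAs, and tested two-sided with lmFit and eBayes of limma 3.58.1 under R 4.3.3 (Benjamini-Hochberg over 710 miRNAs, threshold 0.05). No miRNA was left out. The gap and the share were tested by exact permutation over all 924 arrangements of the 12 arrays, and over fewer where an array was left out. With sex as a covariate 400 arrangements within sex were used, and with the replicate block 64 arrangements of signs. The fit was tested on simulated data. The number of arrays limits precision. Sequences come from RefSeq (GRCm38.p6). Neither array ID has an exact mature name there, and miR-140* was matched to miR-140-3p from general knowledge of the renaming. The hairpin was folded with RNAfold 2.7.2, and matplotlib 3.10.9 under Python 3.11.15 drew the plots.

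The members, lists and tests were chosen with earlier results of these data known. Named miRNAs follow a rule: both members, the 5 most correlated with each, the 5 arm pairs with the widest starred excess, the 2 neighbours on each side in level, up to 3 brightest list members and any measured miRNA with the same seed. Outside it, miR-455, miR-675-5p, miR-1, miR-206, miR-142-3p, miR-155, miR-181b, miR-144 and miR-451 were named as members of their lists. miR-125b and miR-30b were named from the arm pairs. All of these were named after their values were seen. Alternatives were other normalizations, offsets of 1 and 200, a filter on level, array weights, a trended robust variance, summed intensity or sex as a covariate, the authors' normalized table and leaving out each array. The share of summed intensity, and leaving out samples for it and for the interaction, were added after seeing the data.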

Additional observations from a re-analysis of the deposited data

Results flagged for a closer look

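Among 20 results examined in both genotypes, the levels, gap and share of miR-140 and miR-140* included, 0 of 40 groups held an array that stood apart from the other 5 by Dixon's criterion for 6 samples, where chance gives about 5%.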

How the results depend on the processing

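The genotype differences kept their direction and stayed short of the threshold under every alternative run, 24 for miR-140* and 23 for miR-140, which the filter on level removes. They ranged over the other settings from -0.11 to -0.05 for miR-140* and from -0.25 to -0.07 for miR-140, and with each array left out in turn from -0.16 to -0.02 and from -0.24 to -0.06. The gap between the arms had a genotype difference of -0.013 with an offset of 200 (exact permutation p = 0.881), against 0.07, and of 0.02 to 0.16 with each array left out, the highest without knockout 4 (exact permutation p = 0.061) and the lowest without knockout 5 or wild-type array 12. For a permutation test of the gap, the filter, array weights, variance and summed intensity settings gave no value. The share of summed intensity differed by -0.59 to -0.14 percentage points with each array left out. The sex difference within knockouts ranged from 0.36 to 0.56 for miR-140 and from 0.16 to 0.33 for miR-140* with each knockout left out, and over the other settings from 0.17 (no normalization) to 0.80 (offset of 1) and from 0.19 to 0.38, never past the threshold. With both genotypes in the authors' table it was 0.24 and 0.07. The interaction ranged from 0.24 to 0.62 and from 0.15 to 0.41 with each mouse left out. The count of miRNAs called for genotype was 0 to 1 with each array left out (miR-181b without wild-type array 12) and 0 under all other settings. The count for sex was 3 without normalization (miR-125b-5p, miR-122 and miR-145), 2 with an offset of 1 (miR-804 and miR-204), 1 with a trended robust variance (miR-206), 1 over both genotypes (miR-122) and 0 with each knockout left out, the names being those of miRNAs seen after the fact; the cause was not tested. The labels number the mice of both genotypes 1 to 6. Same-numbered mice correlated above 0.1 in only 2 of 6 pairs, and 2 of 6 knockouts correlated best with their own number. So few correlations gave no clear sign that the numbers pair the samples, and they cannot exclude it. With the number as a replicate block in the authors' table, the differences were -0.15 for miR-140 and -0.07 for miR-140*, the gap's was 0.07 and 0 miRNAs were called. A difference within the neighbouring ranks of miR-140*, or below the noise of miR-140, could not be seen in these arrays.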

Other observations

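Of all 181 pairs of arms, starred or named 5p and 3p, only miR-15b had a gap wider than that of miR-140, and in the other direction, with miR-15b* below miR-15b by a mean log2 difference of -7.94. Its gap was -8.14 ± 0.28 (SD) in the 6 knockouts and -7.75 ± 0.56 in the 6 wild types. The next widest of that kind were miR-16 at -7.39, miR-30b at -7.15 and miR-191 at -7.10. The dimmer arm exceeded the size of the lowest value of its array on 11 of 12 arrays for miR-15b, 12 for miR-16, 9 for miR-191 and only 2 for miR-30b, whose gap is thus uncertain in size. The unstarred arm had the higher mean in 70 of the 107 starred pairs, on all 12 arrays in 61. In the authors' normalized table the gap of miR-140 averaged 7.65 ± 0.25 (SD) in the 6 knockouts and 7.58 ± 0.14 in the 6 wild types. There its SD over the 12 samples was 0.20, and 1 of the 107 pairs had a smaller one.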
